A study of Homo sapiens with 16 samples.

Results

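The 10 genes described here are the MHC class II chains *HLA-DRA*, *HLA-DRB1*, *HLA-DPA1*, *HLA-DPB1*, *HLA-DQA1* and *HLA-DQB1*, the peptide loading genes *HLA-DMA*, *HLA-DMB* and *CD74*, and the class II regulator *CIITA*. They were chosen by name out of the 60623 genes in the files, and all 10 were found and tested in both experiments. The cells were MUTZ-3, a human AML line with inv(3) that depends on growth factors and was cultured with GM-CSF and medium conditioned by a bladder carcinoma line. For PARP inhibition, 9 libraries were made after 12, 24 or 48 h with olaparib (10 µM), talazoparib (1 µM) or the vehicle DMSO, and a further library from untreated cells at 0 h. For the knockdown, 6 libraries were made at day 3 and day 6 from cells with a non-targeting shRNA (NTC) or with an shRNA against *EVI1*, either shEVI1-2531 or shEVI1-2532, each delivered in the lentiviral vector pLKO.1 with puromycin selection. The deposited tables of shEVI1-2531 carry another hairpin number in their names than the sample titles, and the titles were followed here. Each of the 16 conditions was sequenced once, so no value of a condition has a replicate.

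Class II molecules are alpha and beta chain dimers that show peptides from the endosome to CD4+ T cells. *CD74*, the invariant chain, fills the groove of the new dimer, and HLA-DM, the dimer of HLA-DMA and HLA-DMB, exchanges what is left of it for a peptide. *CIITA*, a coactivator that does not itself bind DNA, is recruited to class II promoters by factors on the X box (RFX and CREB) and the Y box (NF-Y), and in the myeloid lineage class II is found on progenitors, monocytes and dendritic cells.

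The promoters are shown because these boxes are what *CIITA* acts through. RefSeq promoter windows of 300 bases, from 250 before to 50 after the start site in GRCh38.p14, were at hand for 8 of the 10 members, with 9 windows since *HLA-DPA1* has a pair of them. No window was at hand for *HLA-DRA* and *CIITA*. An X-box core was searched as AGNNACNGA and a Y-box core as ATTGG, on both strands, with letters chosen while the members' promoters were in view. The X core was found in 6 of the 9 windows, against 15.3% of 35116 promoters, and the Y core in 7 of the 9, against 34.6%. Both cores in this order, 20 to 30 bases apart on the same strand, stood in 4 of the 9 windows, those of *HLA-DRB1*, *HLA-DQA1*, *HLA-DQB1* and *HLA-DMA*, against 0.157% of all promoters. Because the letters were chosen with these windows in view, the shares do not test an enrichment. Of 7 windows of other HLA-D genes, antisense genes among them, 3 held the X core and 7 the Y core. The pair stood in 2 of those 7, *HLA-DOA* and *HLA-DRB5*. In the stretches below, read 5′ to 3′ on the strand of the gene, capitals mark the cores, and *CD74* has the Y core on the opposite strand. The *HLA-DMB* window also has its Y core on the opposite strand, outside the stretch shown.

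HLA-DRB1: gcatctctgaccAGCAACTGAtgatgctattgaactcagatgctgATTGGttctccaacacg
HLA-DQA1: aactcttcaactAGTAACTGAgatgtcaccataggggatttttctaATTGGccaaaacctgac
HLA-DQB1: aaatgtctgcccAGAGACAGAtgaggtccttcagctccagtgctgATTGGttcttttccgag
HLA-DMA: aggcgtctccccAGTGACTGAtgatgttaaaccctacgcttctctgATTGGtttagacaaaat
HLA-DMB: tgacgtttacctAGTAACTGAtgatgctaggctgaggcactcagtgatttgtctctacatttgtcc
HLA-DPA1: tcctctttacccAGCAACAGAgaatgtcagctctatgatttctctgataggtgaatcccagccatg
HLA-DPB1: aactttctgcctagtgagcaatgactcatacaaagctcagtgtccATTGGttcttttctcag
CD74: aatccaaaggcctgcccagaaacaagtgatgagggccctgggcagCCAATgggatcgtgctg

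These stretches lie at chr6:32589878-32589939 (*HLA-DRB1*, minus strand), chr6:32637292-32637354 (*HLA-DQA1*, plus), chr6:32666729-32666790 (*HLA-DQB1*, minus) and chr6:32953160-32953222 (*HLA-DMA*, minus). The others lie at chr6:32941063-32941128 (*HLA-DMB*, minus), chr6:33073695-33073760 (*HLA-DPA1*, minus), chr6:33075846-33075907 (*HLA-DPB1*, plus) and chr5:150412947-150413008 (*CD74*, minus). No binding was measured in these libraries, and a match of letters is not a bound site. The windows of *HLA-DPA1*, *HLA-DPB1*, *HLA-DQA1*, *HLA-DQB1* and *HLA-DMA* lie inside the deposited span of a member.

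In the files, the gene rows of the class II chains span chromosome 6 from *HLA-DRA* (ENSG00000204287, 32439878 to 32445046, plus strand) to *HLA-DPB1* (ENSG00000223865, 33075990 to 33089696, plus strand). *CD74* (ENSG00000019582) lies on chromosome 5 from 150400041 to 150412929 on the minus strand, and *CIITA* (ENSG00000179583) on chromosome 16 from 10866222 to 10943021 on the plus strand. *HLA-DPA1* and *HLA-DPB1* overlap each other on opposite strands, *HLA-DQB1* overlaps its antisense gene *HLA-DQB1-AS1*, and *CIITA* overlaps *DEXI* and both *AC133065.1* and *AC133065.3*. *HLA-DMA* overlaps *BRD2* and *CD74* overlaps *TCOF1*, each on the opposite strand, *AL645941.2* lies over *HLA-DMA* and *HLA-DMB*, and *RPL32P1* over both DP genes. Whether counting used strand is not given in the sources used here, so reads of such pairs cannot be told apart. *HLA-DRB1* shares near-identical sequence with the other DRB rows, and its level is uncertain for that reason.

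Depth ran from 55999673 to 72681943 counts in the 10 PARPi libraries and from 95523038 to 120716213 in the 6 of the knockdown, and 3 counts were worth 0.0249 to 0.0536 CPM (a gene's counts scaled to the library total). The members took 0.211% to 0.658% of a library, and their lowest count was 442, for *HLA-DQA1* after 12 h of olaparib (7.01 CPM, exact 95% binomial confidence interval 6.37 to 7.69, which covers counting error only). The 4 markers of the line itself each reached 1 CPM in a library, though *CD14* had 0.456 and 0.687 CPM with NTC, and of 6 epithelial markers, chosen for the line behind the conditioned medium, none reached 1 CPM in a library. CPM and the fitted values differ in scale, because edgeR's TMM scaling sets the middle of all genes to about 0. Compared with library totals it raised the log2 ratios to the control by 0.19 for olaparib and 0.27 for talazoparib at 48 h and by 0.17 to 0.35 in the knockdown pairs, and moved them by −0.02 to 0.03 at 12 and 24 h.

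Per kilobase of exon, in CPM over the exon length of GENCODE v29, the members covered a wide range of levels. In the 10 PARPi libraries *HLA-DRA* stood highest (482 to 2071, median 618), followed by *CD74* (275 to 542, median 350) and *HLA-DRB1* (143 to 410, median 171), and the ranges of these neighbours overlapped. *HLA-DPB1* (29.3 to 73.8), *HLA-DPA1* (20.6 to 45.7) and *HLA-DMA* (20.8 to 38.6) formed a middle group whose ranges also overlapped. *HLA-DMB* (3.62 to 24.2), *HLA-DQB1* (3.52 to 19.6) and *HLA-DQA1* (0.937 to 13) were low at the start and spread the most. *CIITA* ranged from 1.53 to 3.04. The knockdown libraries gave the same highest gene by median, *HLA-DRA* at 1333 per kilobase, with *CD74* next at 470. The order rests on the lengths used, 20757 bases for *CIITA*, 6927 for *HLA-DQA1*, 3184 for *CD74* and 1280 for *HLA-DRA*. In CPM alone *CD74* had the higher median in the PARPi libraries (1112 against 790 for *HLA-DRA*), but not in the knockdown (1496 against 1706). GENCODE v29 spans matched the files for 6 of the 10 members, but not for *HLA-DRA*, *HLA-DPB1*, *HLA-DMB* and *CD74*.

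After PARP inhibition, the class II genes departed from DMSO late and unevenly. At 12 h, 3 of the 10 members stood above DMSO after olaparib and 9 after talazoparib, with median log2 ratios of −0.04 and 0.15. At 48 h, 9 and 10 members stood above DMSO, with medians of 0.37 and 0.86, and the DQ pair and *HLA-DMB* led the rise while *CIITA* moved little. These are ratios of single libraries of bulk cells, in which more cells of a type and more RNA per cell cannot be told apart.

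**Figure D1:**
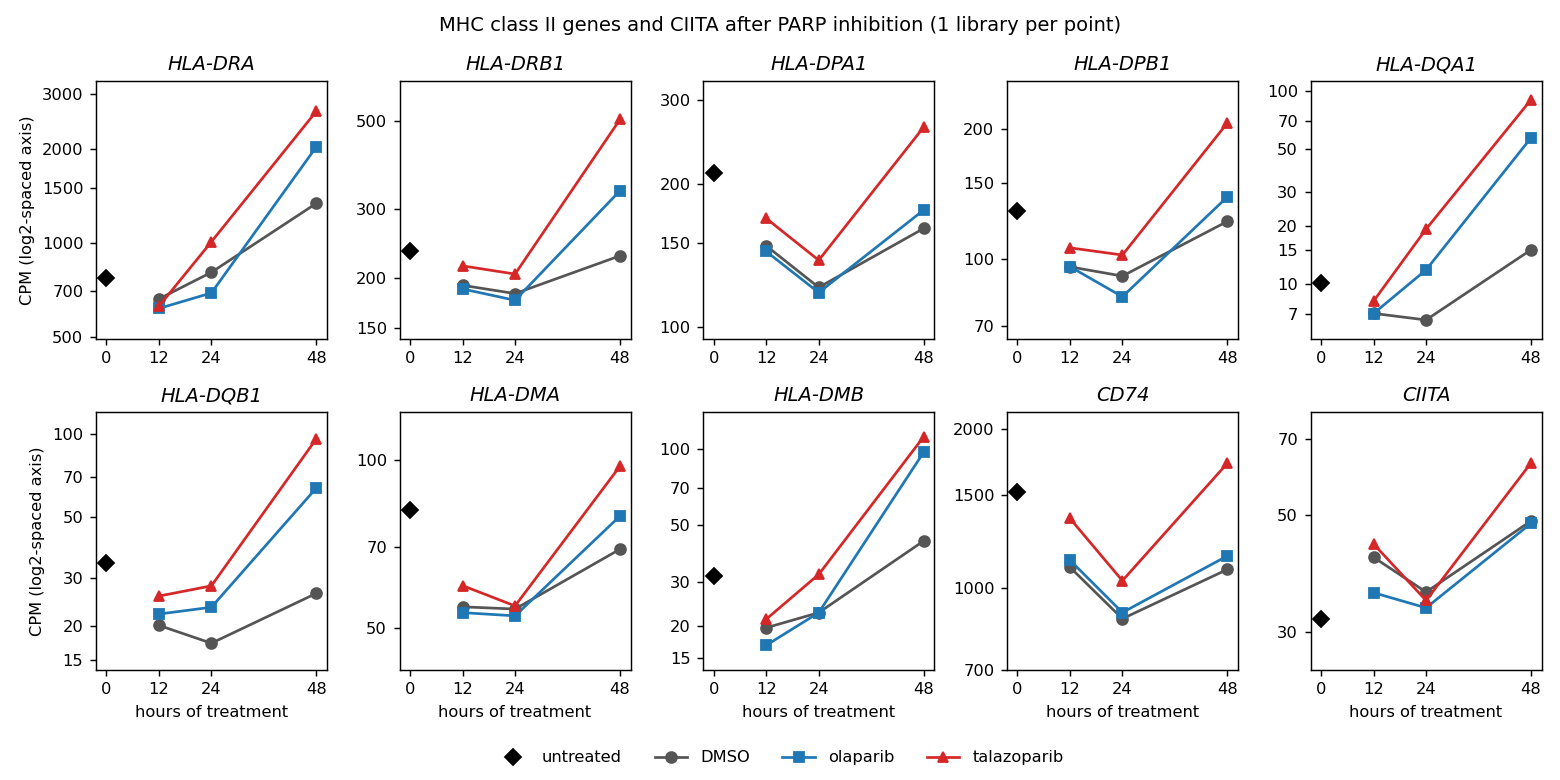
CPM of each member (log2-spaced axis, 1 library per point) against hours of treatment, for untreated cells at 0 h and for DMSO, olaparib and talazoparib. At 48 h talazoparib stands above DMSO in all 10 panels, at 601% of DMSO for HLA-DQA1 and 129% for CIITA.

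*HLA-DQA1*, the alpha chain of HLA-DQ, had 7.02, 6.49 and 15 CPM at 12, 24 and 48 h with DMSO. It had 7.01, 11.8 and 57.1 CPM after olaparib and 8.13, 19.2 and 90 CPM after talazoparib, against 10.1 CPM in untreated cells. Both inhibitors were thus above DMSO at 24 and 48 h, while at 12 h olaparib lay on the DMSO value. At 48 h the level was 382% of DMSO with olaparib (log2 ratio 1.93, 95% confidence interval 1.83 to 2.04) and 601% with talazoparib (2.59, 2.49 to 2.69). Its beta chain partner *HLA-DQB1* had 20.1, 17.3 and 26.3 CPM with DMSO, 22.1, 23.4 and 63.7 CPM after olaparib and 25.7, 28 and 96.3 CPM after talazoparib. All 6 inhibitor libraries were above the DMSO library of the same time, and at 48 h the levels were 242% and 366% of DMSO.

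*HLA-DRA*, the alpha chain of all HLA-DR molecules, had 662, 806 and 1342 CPM with DMSO, so it rose with time in the vehicle as well. After olaparib it had 617, 692 and 2038 CPM and after talazoparib 627, 1010 and 2651 CPM. Olaparib was below DMSO at 12 and 24 h and at 152% of it at 48 h, and talazoparib was at 94.7%, 125% and 197%. *HLA-DRB1*, the main DR beta chain, had 192, 183 and 228 CPM with DMSO, 188, 176 and 333 CPM after olaparib and 215, 205 and 504 CPM after talazoparib. Its ratio to DMSO at 48 h was 146% with olaparib and 221% with talazoparib.

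Of the DP chains, *HLA-DPA1* had 148, 121 and 161 CPM with DMSO, 144, 118 and 176 CPM after olaparib and 169, 138 and 263 CPM after talazoparib. *HLA-DPB1* had 95.8, 91.2 and 122 CPM, 95.9, 81.7 and 139 CPM, and 106, 102 and 206 CPM in the same order. At 48 h the DP chains were at 110% and 114% of DMSO with olaparib and at 164% and 168% with talazoparib, less than either DQ chain in the same libraries.

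Among the peptide loading genes, *HLA-DMB*, the beta chain of HLA-DM, had 19.7, 22.6 and 43.4 CPM with DMSO, 16.8, 22.6 and 97.3 CPM after olaparib and 21.3, 32 and 112 CPM after talazoparib. *HLA-DMA*, its alpha chain, had 54.6, 54.1 and 69.3 CPM, 53.3, 52.6 and 79.5 CPM, and 59.6, 54.8 and 97.7 CPM in the same order. At 48 h *HLA-DMB* reached 224% and 259% of DMSO with olaparib and talazoparib, and *HLA-DMA* 115% and 141%. *CD74* had 1095, 874 and 1084 CPM with DMSO, 1129, 898 and 1150 CPM after olaparib and 1355, 1032 and 1724 CPM after talazoparib. It stood within 106% of DMSO in each olaparib library and between 118% and 159% in the talazoparib libraries.

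*CIITA* had 41.6, 35.7 and 48.8 CPM with DMSO, 35.6, 33.3 and 48.3 CPM after olaparib and 44.1, 34.4 and 63 CPM after talazoparib. The olaparib libraries lay at 85.6%, 93.4% and 99% of DMSO and the talazoparib libraries at 106%, 96.4% and 129%, so no library of the regulator left DMSO by as much as the DQ chains did at 48 h.

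Averaged over time points and inhibitors, 0 of the 10 members were called by edgeR (quasi-likelihood fit, Benjamini-Hochberg over 17218 genes, threshold 0.05), which called 3.16% of all genes higher and 1.01% lower. A change of the effect with time counts as spread in this fit. At an unadjusted p under 0.05, 3 members were higher, beside 18.1% of all genes, and DESeq2 called 2, *HLA-DQA1* and *HLA-DQB1*, beside 11.6%. The log2 fold change of *HLA-DQA1* was 1.19 (SE 0.38, adjusted p = 0.0761 in edgeR), that of *HLA-DQB1* 0.83 (SE 0.26, adjusted p = 0.0752) and that of *CIITA* 0.09 (SE 0.12, adjusted p = 0.635). All 10 fitted values were above 0, with medians of 0.34 for the 6 chains and 0.25 for the loading genes and *CIITA*, beside −0.01 over all genes tested. Without the 12 h libraries, *HLA-DQA1*, *HLA-DQB1* and *HLA-DMB* passed the test, beside 12.4% of all genes, and without the 24 h libraries 0 of all genes passed.

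Taken alone, olaparib called 0 of the 10 members (0 at an unadjusted p under 0.05, and 0 by DESeq2), where it called 0.639% of all genes higher and 0% lower. Talazoparib also called 0 members, with 7 higher at an unadjusted p under 0.05, beside 19.3% of all genes, and 3 by DESeq2 (*HLA-DQA1*, *HLA-DQB1* and *CD74*), beside 12.1%, where edgeR called 3.00% of all genes higher and 0.999% lower. Its fitted log2 fold change was 1.5 (SE 0.43, adjusted p = 0.0592 in edgeR) for *HLA-DQA1* and 0.51 (SE 0.15, adjusted p = 0.0633) for *CD74*. With scaling to library totals the split for talazoparib was 162 higher to 17 lower genes, against 516 to 172 with TMM.

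The compounds were given at different doses, so compound and dose cannot be told apart. Talazoparib minus olaparib was above 0 for all 10 members, and 0 passed the test, as did 0% of all genes in either direction (3 members at an unadjusted p under 0.05, beside 1.30% of all genes, and 0 members by DESeq2). For *HLA-DQA1* the difference was 0.61 on the log2 scale (95% confidence interval −0.31 to 1.54), for *CD74* 0.40 (0.05 to 0.75) and for *CIITA* 0.29 (−0.03 to 0.62). The p-values that missed the threshold do not show that the inhibitors acted alike.

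The distance to DMSO grew with time for the DR and DQ chains and *HLA-DMB*. In a model where each inhibitor's distance to DMSO could change with the log2 of hours, 5 of the 10 members had a distance that grew, *HLA-DRA*, *HLA-DRB1*, *HLA-DQA1*, *HLA-DQB1* and *HLA-DMB*, and none had one that shrank. Over all genes, 10.0% had a higher and 9.82% a lower slope by the same edgeR test. The mean slope of *HLA-DQA1* was 1.19 on the log2 scale per doubling of hours (SE 0.14, adjusted p = 1.0e-14 in edgeR), and those of *HLA-DQB1* and *HLA-DMB* were both 0.77 (SE 0.14, adjusted p = 6.5e-07 and 5.0e-07). *HLA-DRA* had 0.55 (adjusted p = 6.9e-04) and *HLA-DRB1* 0.50 (adjusted p = 0.00203).

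The other members had slopes of 0.21 to 0.30, with 0.23 for *CIITA* (SE 0.13, adjusted p = 0.237 in edgeR). This fit had 2 residual degrees of freedom and its spread was pooled over genes (34436 total degrees of freedom), so the p-values rest on a spread common to nearly all genes. They also rest on the 48 h libraries: without DMSO at 48 h only *HLA-DQA1* passed (slope 1.10), and without olaparib at 48 h only *HLA-DQA1* and *HLA-DQB1*. Without talazoparib at 12 h *HLA-DRA* (slope 0.52) and without talazoparib at 48 h *HLA-DRB1* (slope 0.32) no longer passed. With library totals the split of all genes was 1091 higher to 2424 lower slopes, against 1721 to 1691 with TMM, and 5 members were called in both.

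**Figure D2:**
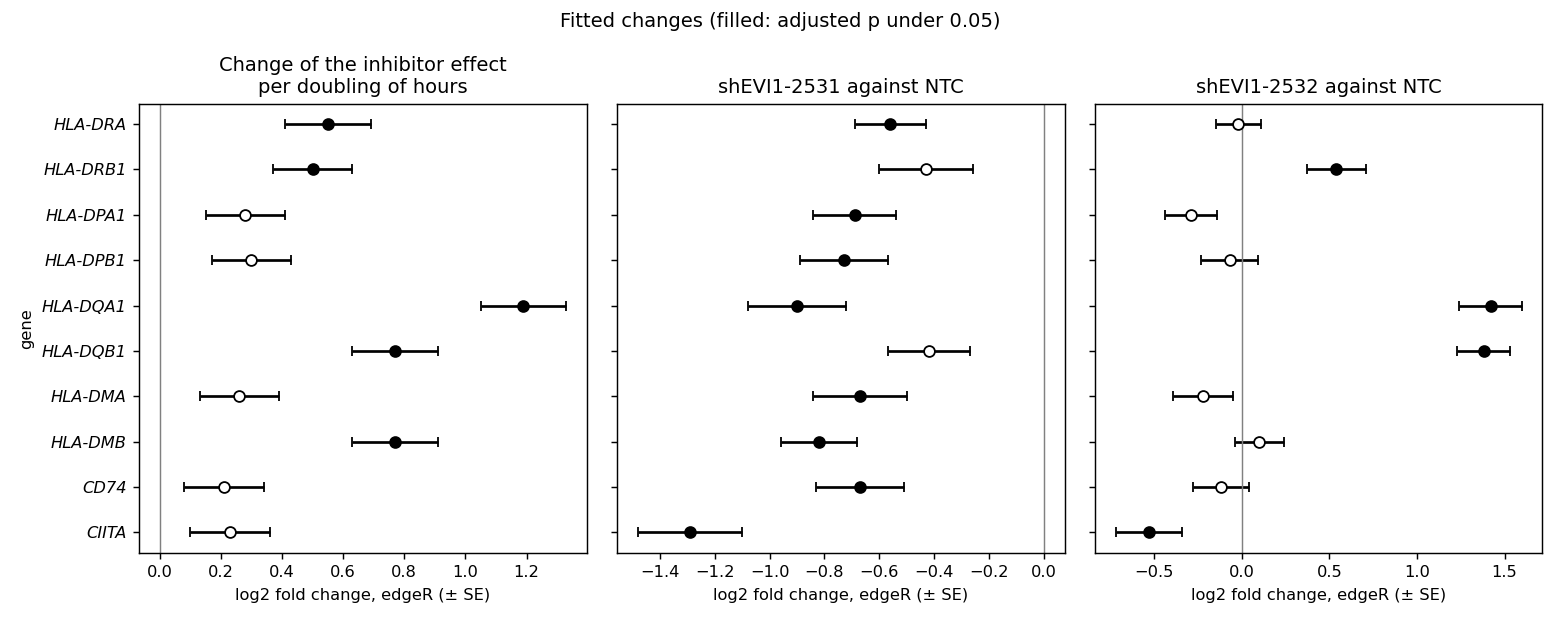
Fitted log2 values with SE from edgeR for the 10 members (rows): the change of the inhibitor effect per doubling of hours, shEVI1-2531 against NTC and shEVI1-2532 against NTC, with filled points for an adjusted p under 0.05. The slopes are filled for 5 members, shEVI1-2531 for 8 (all to the left of 0), and shEVI1-2532 for 3 to the right and CIITA to the left.

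In the knockdown, *EVI1*, listed in the files as MECOM, had 42.4 CPM with NTC at day 3 and 44.2 CPM at day 6. It had 12.3 and 18.5 CPM with shEVI1-2531 and 4.51 and 4.03 CPM with shEVI1-2532, so the targeted gene was lower in all 4 shEVI1 libraries. The shRNAs differed in the class II genes: all members were lower with shEVI1-2531, while with shEVI1-2532 the DQ chains lay above NTC and *CIITA* below it on both days.

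**Figure D3:**
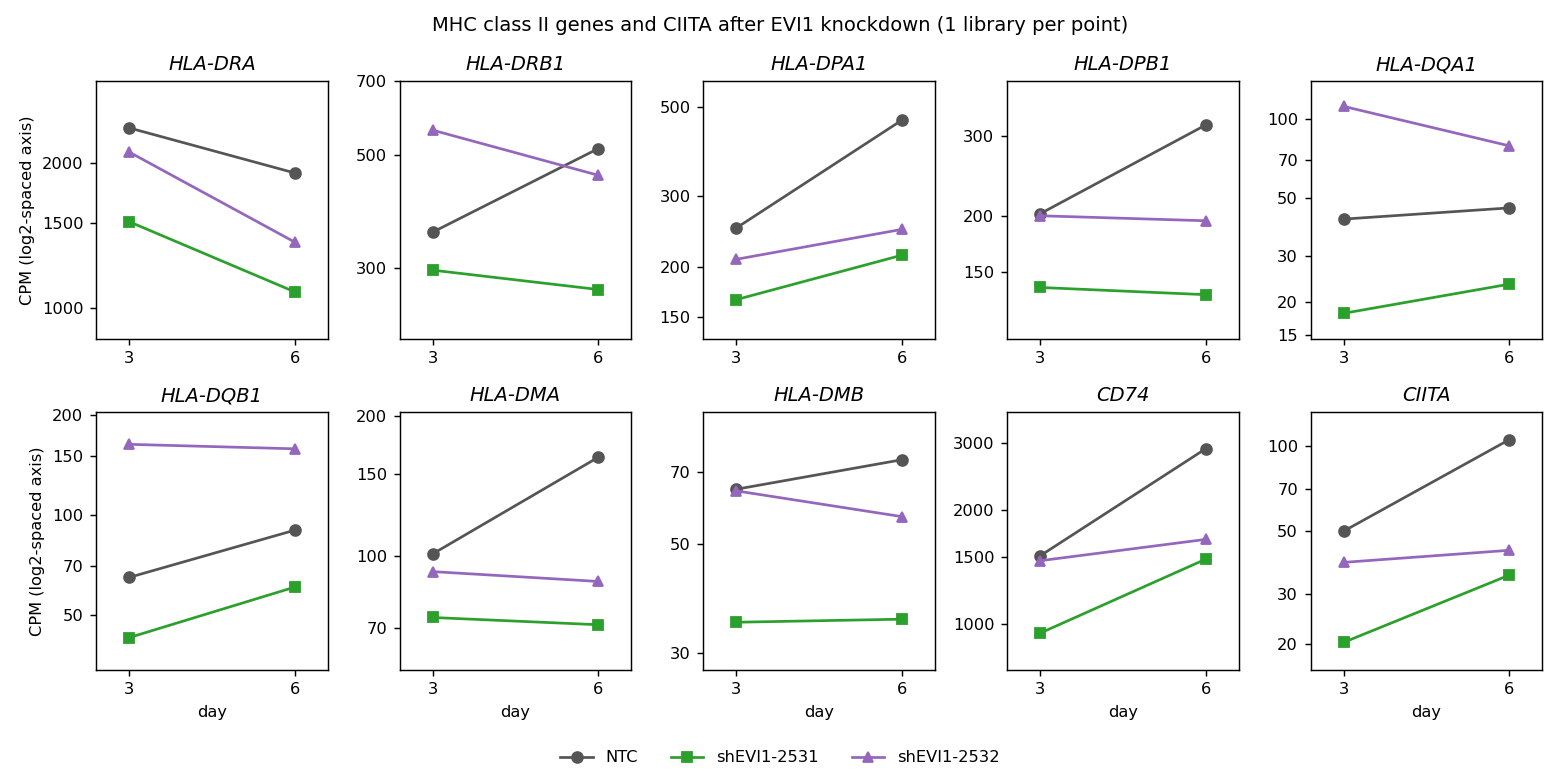
CPM of each member (log2-spaced axis, 1 library per point) at day 3 and day 6 with NTC, shEVI1-2531 and shEVI1-2532. The shEVI1-2531 points lie below NTC in all 10 panels on both days, whereas HLA-DQA1 and HLA-DQB1 with shEVI1-2532 lie above it.

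*CIITA* had 49.9 CPM with NTC, 20.2 with shEVI1-2531 and 38.7 with shEVI1-2532 at day 3. At day 6 it had 105, 34.9 and 42.7 CPM. All 4 knockdown libraries were below NTC of the same day, and NTC itself was at 211% of its day 3 level on day 6. With shEVI1-2531 the level was 40.4% of NTC at day 3 (log2 ratio −1.31, 95% confidence interval −1.38 to −1.23) and 33.1% at day 6 (−1.60, −1.65 to −1.54). With shEVI1-2532 it was 77.5% and 40.5%.

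*HLA-DRA* had 2359, 1509 and 2103 CPM at day 3 with NTC, shEVI1-2531 and shEVI1-2532, and 1903, 1080 and 1369 CPM at day 6. *HLA-DRB1* had 353, 297 and 561 CPM at day 3 and 516, 272 and 457 CPM at day 6 in the same order. The shEVI1-2531 libraries were the lowest of each day for both DR chains, and *HLA-DRB1* with shEVI1-2532 was above NTC at day 3 and below it at day 6.

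*HLA-DQA1* had 41.5, 18.1 and 112 CPM at day 3 with NTC, shEVI1-2531 and shEVI1-2532 and 45.8, 23.4 and 79.1 CPM at day 6. *HLA-DQB1* had 64.7, 42.6 and 163 CPM at day 3 and 89.8, 60.5 and 158 CPM at day 6. Both DQ chains were thus ordered in the same way on both days, with shEVI1-2532 highest and shEVI1-2531 lowest. With shEVI1-2532 *HLA-DQA1* was at 269% of NTC at day 3 and 173% at day 6, and *HLA-DQB1* at 252% and 176%.

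*HLA-DPA1* had 250, 166 and 209 CPM at day 3 and 463, 214 and 248 CPM at day 6, and *HLA-DPB1* had 202, 139 and 200 CPM and 317, 134 and 195 CPM. *CD74* had 1511, 943 and 1467 CPM at day 3 and 2904, 1481 and 1671 CPM at day 6. For these genes the NTC library of day 6 stood well above that of day 3, and shEVI1-2532 was close to NTC at day 3 for *HLA-DPB1* (99.2%) and *CD74* (97.1%) but at 61.6% and 57.5% of it at day 6. *HLA-DMA* had 101, 73.7 and 92.5 CPM at day 3 and 163, 71.1 and 88.1 CPM at day 6, and *HLA-DMB* 64.6, 34.6 and 64.1 CPM and 74.2, 35.1 and 56.8 CPM.

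With shEVI1-2531, 8 of the 10 members were called lower and none higher by edgeR, beside 7.90% of 18606 genes lower and 9.49% higher. *CIITA* had the lowest fitted log2 fold change, −1.29 (SE 0.19, adjusted p = 7.1e-04), followed by *HLA-DQA1* with −0.90 (SE 0.18, adjusted p = 0.00451) and *HLA-DMB* with −0.82 (SE 0.14, adjusted p = 0.00183). *HLA-DRA*, *HLA-DPA1*, *HLA-DPB1*, *HLA-DMA* and *CD74* lay between −0.73 and −0.56, and *HLA-DRB1* (−0.43, adjusted p = 0.104) and *HLA-DQB1* (−0.42, adjusted p = 0.069) did not pass the test. The fit had 2 residual degrees of freedom and treated the days as repeats. Without NTC at day 6 only *HLA-DMB* and *CIITA* stayed below the threshold, 2 of the 8, and without the day in the model 0 of 10 passed. Library totals gave 1049 higher to 2270 lower genes, against 1765 to 1470 with TMM.

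With shEVI1-2532, 3 members were called higher and *CIITA* lower, beside 21.2% of all genes higher and 19.9% lower. The log2 fold change was 1.42 (SE 0.18, adjusted p = 6.2e-05 in edgeR) for *HLA-DQA1*, 1.38 (SE 0.15, adjusted p = 1.8e-05) for *HLA-DQB1*, 0.54 (SE 0.17, adjusted p = 0.0252) for *HLA-DRB1* and −0.53 (SE 0.19, adjusted p = 0.0399) for *CIITA*. The fitted values of the other members ran from −0.29 for *HLA-DPA1* to 0.10 for *HLA-DMB*. *HLA-DRB1* did not pass without NTC at day 3 (0.14), without shEVI1-2532 at day 3 (0.34) or with library totals (0.23), and *CIITA* did not pass without NTC at day 6 (−0.24) or shEVI1-2532 at day 6 (−0.18). Library totals gave 2360 higher to 5957 lower genes, against 3942 to 3706 with TMM, and turned the sign of *HLA-DMB* (−0.20).

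The difference between the shRNAs was tested directly. It was higher with shEVI1-2532 for 8 of the 10 members, beside 12.2% of all genes higher and 12.0% lower (1524 to 3000 genes with library totals, 2271 to 2234 with TMM). The members outside the call were *HLA-DPA1* (0.41, adjusted p = 0.0708 in edgeR) and *HLA-DMA* (0.45, adjusted p = 0.0795). The largest differences were those of *HLA-DQA1*, 2.33 (SE 0.18, adjusted p = 1.4e-05), and *HLA-DQB1*, 1.80 (SE 0.15, adjusted p = 1.9e-05). Treated as 1 group, the shRNAs called 0 of 10 members (1 lower at an unadjusted p under 0.05, *CIITA*, beside 11.0% of all genes, and 0 by DESeq2), where 0.849% of all genes were called higher and 0.806% lower (111 to 240 genes with library totals, 158 to 150 with TMM). *CIITA* had −0.87 there (SE 0.32, adjusted p = 0.172).

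**Figure D4:**
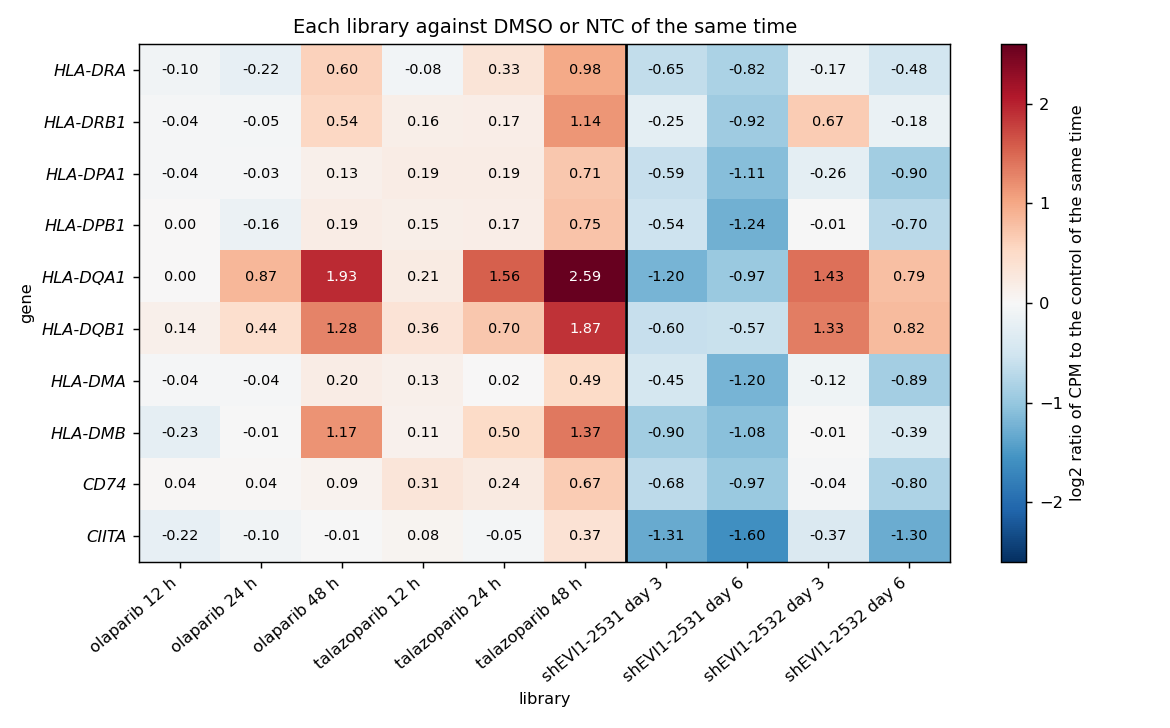
Log2 ratio of CPM of each member (rows) in each inhibitor or shEVI1 library (columns) to DMSO or NTC of the same time, 1 library per cell, red above and blue below the control. The shEVI1-2531 columns run from −1.60 to −0.25 with no value above 0, and the talazoparib 48 h column from 0.37 to 2.59 with none below.

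The members did not keep their proportions within a library, which no scaling between libraries can change. *HLA-DMA* had 2.58 counts per count of *HLA-DMB* in untreated cells and 2.77, 2.39 and 1.60 at 12, 24 and 48 h with DMSO. At 48 h the ratio was 0.817 with olaparib and 0.869 with talazoparib, so *HLA-DMB* had the larger count there and in no other library. The exon lengths differ, with 4655 bases for *HLA-DMB* and 2534 for *HLA-DMA*. Per kilobase of exon *HLA-DMA* was still higher at 48 h, with 31.4 against 20.9 after olaparib and 38.6 against 24.2 after talazoparib. *HLA-DQA1* had 1.11% of the *HLA-DRA* counts with DMSO at 48 h, 2.80% with olaparib and 3.39% with talazoparib. It had 1.76% and 2.41% with NTC at day 3 and day 6, 1.20% and 2.17% with shEVI1-2531 and 5.30% and 5.78% with shEVI1-2532. *HLA-DQB1* counts were 29% and 34.7% of *HLA-DRB1* counts with shEVI1-2532, and 9.44% to 22.2% in the other 14 libraries.

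**Figure D5:**
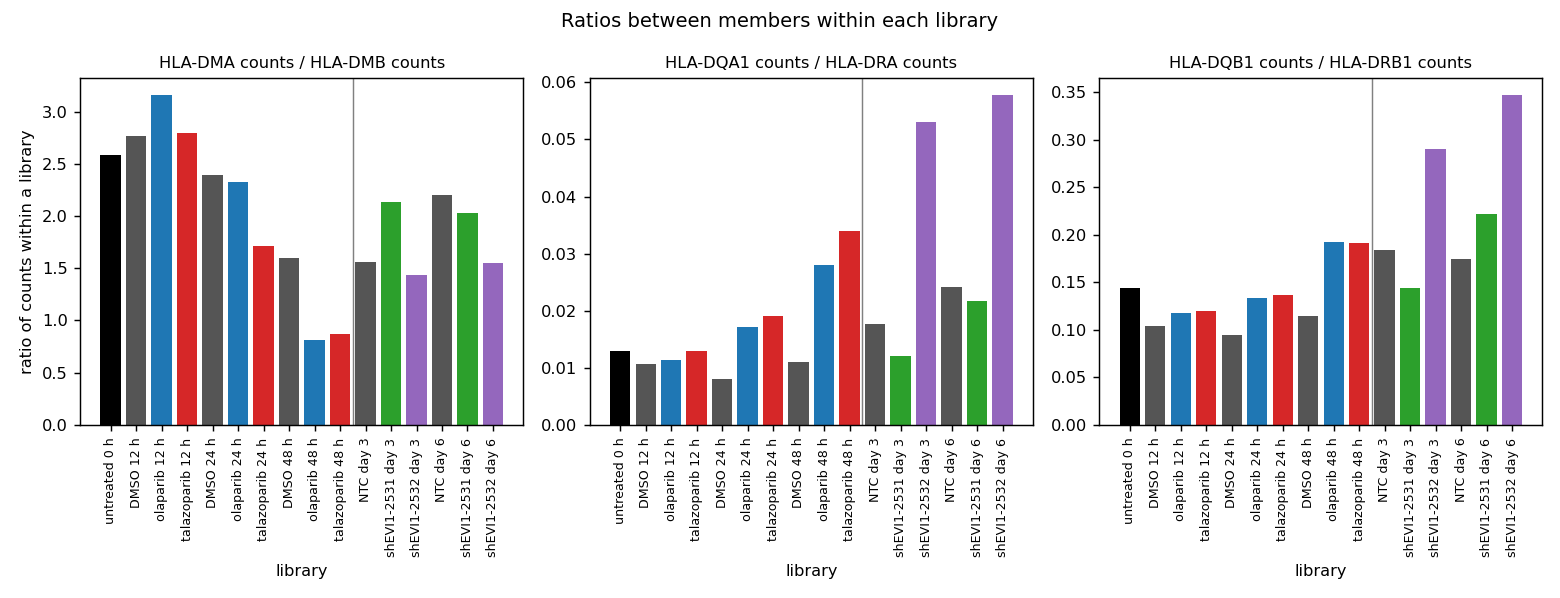
Ratio of the counts of a pair of members within each of the 16 libraries (bars, 1 library each, axis from 0): HLA-DMA to HLA-DMB, HLA-DQA1 to HLA-DRA and HLA-DQB1 to HLA-DRB1. The first ratio falls below 1 only in the 48 h inhibitor libraries, at 0.817 and 0.869, and the others are highest with shEVI1-2532.

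Across the 16 libraries, with log2 CPM centred within each experiment, the members' levels had pairwise Pearson correlations from 0.44 (*HLA-DRA* with *CD74*) to 0.97 (*HLA-DPB1* with *HLA-DMA*). *CD74* went with *HLA-DPA1* (0.96). Some values differed between the experiments: *HLA-DRA* with *CD74* gave 0.60 in the PARPi libraries and 0.09 in the knockdown, and *CIITA* with *HLA-DPA1* gave 0.75 and 0.97. *CIITA* with *HLA-DQA1* gave 0.81 and 0.40, and with *HLA-DQB1* 0.81 and 0.34. Of 8981 genes whose log2 CPM averaged over 3, those most like the mean of the members were *MYO15B* (0.94), *ABCG1* (0.92), *RRAS* (0.92), *UBA7* (0.92) and *ACSS2* (0.91). Those most like *CIITA* were *KLHL6* (0.90), *BTN2A2* (0.87), *AC104530.1* (0.84), *R3HDM2* (0.82) and *PHF21A* (0.82). These are descriptions over libraries that share treatments and controls.

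Of the 12 other class II rows in the files, which hold the HLA-DO chains, DRB and DQ paralogs and pseudogenes, 8 were tested for PARP inhibition and 9 for the knockdown. *HLA-DPB2*, a DP beta pseudogene, had 0.555, 1.06 and 0.801 CPM with DMSO, 0.761, 2.07 and 6.99 CPM after olaparib and 0.922, 3.16 and 13.3 CPM after talazoparib. It had 0.663 and 1.32 CPM with NTC, 4.39 and 4.53 CPM with shEVI1-2531 and 4.38 and 6.58 CPM with shEVI1-2532. Unlike all members it rose with both shRNAs, by 2.42 and 2.80 on the log2 scale (adjusted p = 1.4e-04 and 9.7e-06 in edgeR), and its slope after PARP inhibition was 1.65 (adjusted p = 4.0e-11).

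*HLA-DOA*, a chain of HLA-DO that restrains HLA-DM, had 4.82 and 11.5 CPM with NTC, 0.335 and 0.91 CPM with shEVI1-2531 and 1.18 and 1.15 CPM with shEVI1-2532. It was called lower with each, at −3.54 and −2.35 (adjusted p = 5.6e-05 and 1.2e-04 in edgeR), and lower in its fitted value than any member. *HLA-DRB5*, a paralog of *HLA-DRB1*, moved like it, with a slope of 0.51 (adjusted p = 0.00196 in edgeR) after PARP inhibition and 0.49 (adjusted p = 0.0431) with shEVI1-2532. *HLA-DRB6*, another DRB row, was not called and did not follow *HLA-DRB1*. At 48 h *HLA-DRB6* stood at 58.5% of DMSO with olaparib and 66.5% with talazoparib, against 146% and 221% for *HLA-DRB1*. With shEVI1-2532 *HLA-DRB6* was at 209% of NTC at day 3 and 29% at day 6. *HLA-DQB2* had a slope of 0.56 (adjusted p = 0.034) and fell by 1.65 with shEVI1-2531 (adjusted p = 5.5e-04), and with shEVI1-2532 its value was 0.19 (adjusted p = 0.532). Of the comparisons it was tested in, *HLA-DQA2*, with at most 38 counts in a library, was called higher in 1, shEVI1-2532 minus shEVI1-2531 (1.56, SE 0.52, adjusted p = 0.0465 in edgeR), where *HLA-DOA*, *HLA-DQB2* and *HLA-DRB5* were called higher too.

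Of 10 listed class II promoter factors (RFX and NF-Y subunits, *CREB1* and coactivator acetyltransferases), 1 had a changed slope after PARP inhibition. It was *RFXAP*, an RFX subunit, at −0.67 (adjusted p = 0.00102 in edgeR). The list median was 0.02 beside −0.01 over all genes, of which 10.0% had a higher and 9.82% a lower slope. *RFXAP* had 5.93, 5.90 and 5.59 CPM with DMSO, 4.88, 4.21 and 1.76 CPM after olaparib and 4.37, 3 and 1.21 CPM after talazoparib. With shEVI1-2531 none of the 10 was called (0 by edgeR), and with shEVI1-2532 *CREBBP*, *EP300* and *NFYC* were higher and *KAT2B*, *NFYB* and *RFXAP* lower, *RFXAP* with −1.43 (adjusted p = 0.00113). The shares of all genes were 9.49% higher and 7.90% lower with shEVI1-2531, and 21.2% higher and 19.9% lower with shEVI1-2532.

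Of 18 listed genes of interferon-gamma signalling, not all of which lead to *CIITA*, 17 were tested for PARP inhibition. *IFNG* itself had 0 counts in all 16 libraries, which allows up to 0.0249 to 0.0536 CPM. *IRF1*, a transcription factor induced by interferon, and *TAP1*, a peptide transporter of class I, were called higher on average after PARP inhibition, by 0.80 (adjusted p = 0.0317 in edgeR) and 1.02 (adjusted p = 0.0121). The slope was called higher for *GBP2*, *GBP5*, *IFNGR1*, *IRF8*, *PSMB9* and *SOCS1*, 6 of the 17, beside 10.0% of all genes. The list median was 0.29 beside −0.01 over all genes. With shEVI1-2531, 2 of 16 were higher (*IRF1* and *IRF8*), beside 9.49% of all genes. With shEVI1-2532, 8 of 16 were higher (*GBP2*, *GBP4*, *GBP5*, *IFNGR1*, *IFNGR2*, *IRF1*, *JAK1* and *PTPN2*), beside 21.2% of all genes, the receptor chain *IFNGR1* by 1.39 (adjusted p = 3.0e-05 in edgeR).

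Of genes listed as regulators of *CIITA* in B cells and myeloid cells, 6 were tested for PARP inhibition. *PRDM1*, a repressor of *CIITA* in plasma cells, was called higher on average (0.75, adjusted p = 0.0285 in edgeR), beside 3.16% of all genes. The slopes of *IRF8* and *SPI1* were called higher, 2 of the 6, beside 10.0% of all genes. *SPI1*, the myeloid factor PU.1, was higher with shEVI1-2531 (0.56, adjusted p = 0.00882) and with shEVI1-2532 (1.00, adjusted p = 6.2e-05), as was *TGFB1*, and *IRF8* was higher with shEVI1-2531.

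Several enzymes that cut antigen and invariant chain in the endosome rose. Of 8 tested, *CTSS*, *CTSB* and *CTSD* had higher slopes, beside 10.0% of all genes. *CTSS*, the protease that trims the invariant chain, went from 119 CPM with DMSO at 48 h to 265 CPM with olaparib and 301 CPM with talazoparib (slope 0.80, adjusted p = 8.6e-08 in edgeR). With shEVI1-2531, *CTSB*, *CTSD* and *CTSZ* were higher and *CTSH* lower, beside 9.49% and 7.90% of all genes. With shEVI1-2532 *CTSB*, *CTSD*, *CTSS* and *CTSZ* were higher, 4 of 7 tested, beside 21.2% of all genes. The list medians were 0.48 for the slope, 0.31 for shEVI1-2531 and 1.31 for shEVI1-2532.

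*MARCH1*, the ubiquitin ligase that takes class II from the surface, had a slope of 1.19 (adjusted p = 3.3e-10 in edgeR) and was higher with both shRNAs (1.45 and 1.94). *MARCH8* was higher with shEVI1-2532 (1.5) and *CD83*, which opposes *MARCH1*, with shEVI1-2531 (0.93, adjusted p = 0.0291). At day 3 and day 6 *CD83* had 6.42 and 5.99 CPM with NTC, 7.08 and 15.3 CPM with shEVI1-2531 and 3.2 and 3.6 CPM with shEVI1-2532. It was called lower with shEVI1-2532 than with shEVI1-2531. Of these 3 genes, 2 were called higher with each shRNA, beside 9.49% of all genes with shEVI1-2531 and 21.2% with shEVI1-2532. Of the 7 co-stimulatory genes tested, *CD40*, *CD58*, *CD80*, *CD86*, *ICAM1* and *ICOSLG* had higher slopes, 6 of 7, beside 10.0% of all genes, with a list median of 0.65. *ICAM1* was higher with shEVI1-2531, beside 9.49% of all genes, and *CD40*, *CD58*, *CD86* and *ICAM1* with shEVI1-2532, 4 of 7, beside 21.2%.

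Markers of myeloid cells changed as well, but not always in the direction of the members. With shEVI1-2531 the median log2 fold change was 2.09 for the monocyte markers and −0.68 for the members. The 10 monocyte markers summed to 514 to 656 CPM with DMSO, 552 to 2213 CPM after olaparib and 653 to 4021 CPM after talazoparib. Of the 10 monocyte markers 7 had higher slopes, beside 10.0% of all genes. They summed to 386 to 524 CPM with NTC, 1265 to 1397 CPM with shEVI1-2531 and 4428 to 5923 CPM with shEVI1-2532. Without *LYZ*, lysozyme, the sums were 249 to 294, 325 to 404 and 365 to 526 CPM with DMSO, olaparib and talazoparib, and 180 to 341, 200 to 369 and 515 to 693 CPM with NTC, shEVI1-2531 and shEVI1-2532, so NTC and shEVI1-2531 overlapped. With shEVI1-2531, 6 of the 10 were called higher, beside 9.49% of all genes, and with shEVI1-2532 8, beside 21.2%. The 10 dendritic and Langerhans cell markers summed to 4.35 to 6.84 CPM with DMSO, 15.7 to 44.5 CPM after olaparib and 18.2 to 30.4 CPM after talazoparib. They summed to 8.30 to 15.1 CPM with NTC, 22.2 to 27.4 CPM with shEVI1-2531 and 19.7 to 54.9 CPM with shEVI1-2532. After olaparib and talazoparib, *CCR7* was the highest at 12 h (7.07 and 11.8 CPM) and *CD1C* at 48 h (23.8 and 17.2 CPM). On average after PARP inhibition *CCR7*, *CD207*, *FCER1A* and *LAMP3* were called higher, 4 of 8 tested, beside 3.16% of all genes. Slopes were called higher for *CD1A*, *CD1B*, *CD1C*, *CD207* and *CD209*, 5 of 8, beside 10.0%. *CD1A*, *CD1B* and *CD1C* were called higher with shEVI1-2531 and *CD207* lower. With shEVI1-2532 *CD1A*, *CD1B*, *CD1C*, *CD209* and *FCER1A* were called higher and *CCR7* and *FLT3* lower.

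The 7 progenitor markers, of which *MPO* was the highest, summed to 1963 to 3203 CPM with DMSO, 1227 to 1874 CPM after olaparib and 779 to 2198 CPM after talazoparib. Lower slopes were called for 5 of them, beside 9.82% of all genes. In the knockdown they summed to 4003 to 4220 CPM with NTC, 3364 to 5356 CPM with shEVI1-2531 and 2368 to 3757 CPM with shEVI1-2532. With shEVI1-2531 *KIT* was called higher and *CD34*, *ELANE*, *ERG* and *PROM1* lower. With shEVI1-2532 *AZU1* and *ELANE* were called higher and *CD34*, *ERG* and *KIT* lower. Of 8 B cell markers, whose class II expression also depends on *CIITA*, *MS4A1* and *BLK* had 0 counts in all libraries and 2 reached 1 CPM, *CD79A* and *CD79B*. The 6 T cell markers summed to 3.81 to 14.7 CPM over all libraries, with 4 of them at 1 CPM or more in a library. The part of these markers in the class II results was not tested.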

How the data were processed

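Per gene, the authors deposited raw counts (the submitters' processing notes name STAR, Picard and featureCounts, and GRCh38) and TPM, which they computed over whole gene spans. Libraries were made with a stranded mRNA kit, and the annotation release, tool versions and strand setting are not given in the sources used here. The deposited TPM were recomputed from the counts (largest difference 5.1e-11) and not used further. Genes with at least 10 counts in 3 of 9 (PARPi) or 2 of 6 (knockdown) libraries were fitted with edgeR 4.0.16 in R 4.3.3 (TMM, quasi-likelihood, Benjamini-Hochberg, threshold 0.05), with the time point or the day as a factor. The untreated library entered no fit. With 1 library per condition, p-values rest on how much an effect differed between time points or days, or in the slope fit on departures from the trend. For both shRNAs as 1 group, the difference between the shRNAs enters this spread too. Ratios of single libraries have exact conditional binomial 95% intervals, which cover counting error only. DESeq2 1.42.0, other scalings and filters, and libraries left out in turn were the alternatives, and the fits were tested on simulated data. For the slope, leaving out libraries was added after the data were seen. The members and gene lists were chosen with earlier results of these data known, and the text names the members, every other class II row that was called, the genes of each pathway list called against DMSO or NTC, and the 5 genes most like the members' mean and *CIITA*. RefSeq promoters were read for GRCh38.p14, exon lengths from GENCODE v29.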

Additional observations from a re-analysis of the deposited data

Results flagged for a closer look

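The effects of the shRNAs, each against NTC, differed for 8 members in edgeR's direct test of that difference (adjusted over all genes), shEVI1-2532 being higher each time. The log2 differences were 2.33 for *HLA-DQA1* (adjusted p = 1.4e-05), 1.80 for *HLA-DQB1* (1.9e-05), 0.97 for *HLA-DRB1* (0.00171) and 0.93 for *HLA-DMB* (6.9e-04). They were 0.77 for *CIITA* (0.0115), 0.66 for *HLA-DPB1* (0.0118), 0.55 for *CD74* (0.0237) and 0.54 for *HLA-DRA* (0.00907). *EVI1* itself was lower with shEVI1-2532 than with shEVI1-2531 by the same test (−1.70, adjusted p = 1.4e-04), and whether this difference has a part in those of the members was not tested. Without the day in the model, *HLA-DQA1* and *HLA-DQB1* alone passed.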

How the results depend on the processing

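Library totals in place of TMM gave −0.13 for *HLA-DRB1* with both shRNAs as 1 group and −0.20 for *HLA-DMB* with shEVI1-2532, with 3 members lower there, and leaving out the day gave 0.00 for *HLA-DRA* and 0 members lower with shEVI1-2532, 0 lower with shEVI1-2531 and 2 higher for the difference between shRNAs. DESeq2 called 2 members higher for the mean PARPi effect and 3 for talazoparib, no filter gave 2 and 5, and 1 member lower for both shRNAs as 1 group.

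Leaving out a library or a time point in turn gave 2 to 10 members lower with shEVI1-2531 and 0 to 3 with shEVI1-2532. For members higher it gave 0 to 3 for the mean PARPi effect, 0 to 1 for olaparib, 0 to 3 for talazoparib and 1 to 6 for the slope. An arm left with 1 library was assumed to vary like the others. Values that changed sign ranged, for both shRNAs as 1 group, from −0.19 to 0.98 for *HLA-DQA1* (lowest without shEVI1-2532 at day 3) and from −0.27 to 0.52 for *HLA-DRB1* (also −0.15 and −0.05 without shEVI1-2532 at day 3 and day 6). With shEVI1-2532 they ranged from −0.41 to 0.14 for *CD74* (0.13 without NTC at day 6), −0.62 to 0.16 for *HLA-DMA*, −0.07 to 0.23 for *HLA-DMB*, −0.43 to 0.28 for *HLA-DPB1* (0.06 without shEVI1-2532 at day 6) and −0.17 to 0.09 for *HLA-DRA* (0.05 likewise). For the mean PARPi effect they ranged from −0.07 to 0.17 for *CIITA* and from 0.00 to 0.51 for *HLA-DRA*, each lowest without 48 h. For olaparib they ranged from −0.16 to 0.01 for *CIITA*, −0.04 to 0.17 for *HLA-DMA*, −0.12 to 0.63 for *HLA-DMB*, −0.04 to 0.14 for *HLA-DPA1*, −0.08 to 0.18 for *HLA-DPB1*, −0.15 to 0.31 for *HLA-DRA* and −0.04 to 0.32 for *HLA-DRB1*. Slopes ranged from −0.05 to 0.46 for *CD74*, −0.01 to 0.47 for *CIITA*, −0.07 to 0.58 for *HLA-DMA*, −0.01 to 0.57 for *HLA-DPA1*, −0.08 to 0.69 for *HLA-DPB1* and −0.01 to 1.01 for *HLA-DRB1*, lowest without DMSO at 48 h and highest without DMSO at 12 h. The cause was not tested.

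Over all genes, the mean PARPi effect called 544 higher and 174 lower, against 2057 and 1671 with no filter, 1835 and 1639 with DESeq2, 271 and 72 at 50 counts, 16 and 0 without the time term, and 2065 and 1703, 0 and 0, and 842 and 397 without 12, 24 and 48 h. Olaparib (110 and 0) gave 852 and 125 with no filter and 584 and 85 with DESeq2, and talazoparib (516 and 172) 2154 and 1722, and 1965 and 1775. Both shRNAs as 1 group (158 and 150) gave 1468 and 1260, and 1424 and 1039, and 0 to 439 higher and 0 to 339 lower over the other settings. Without 12, 24 and 48 h, olaparib gave 850 and 84, 0 and 0, and 304 and 21, and talazoparib 2177 and 1777, 0 and 0, and 794 and 389. Without the time term they gave 0 and 0, and 12 and 0, and at 50 counts talazoparib gave 180 and 41. Slopes (1721 and 1691) fell to 219 and 39 without DMSO at 48 h, 651 and 557 without olaparib at 48 h and 847 and 991 without DMSO at 12 h, and without the day shEVI1-2531 (1765 and 1470) gave 276 and 289, shEVI1-2532 (3942 and 3706) 1758 and 1778, and their difference (2271 and 2234) 465 and 456.

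No paired analysis was possible because the labels give no replicate numbers to pair by, beyond the match by time point or day that the fits held as a term and whose removal is given here. Time points could not be left out of the slope fit, for want of residual degrees of freedom.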

Other observations

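The untreated library at 0 h entered no test. Against it, 9 of the 10 members were lower with DMSO at 12 h and 8 at 24 h, with median log2 ratios of −0.49 and −0.54, and *CIITA* was higher, at 131% and 112%. At 48 h DMSO was above its own 24 h library for all 10 members, by 0.31 to 1.20 on the log2 scale. *CD83*, a surface protein of mature dendritic cells that stabilises class II, had 63.4 CPM in untreated cells and 4.05 to 6.02 CPM in the 9 libraries of DMSO and the inhibitors, and was singled out after its values were seen.

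The NTC library of day 6 was above that of day 3 for 9 of the 10 members, by a median of 0.60 on the log2 scale, with *CIITA* at 211% and *CD74* at 192%. With shEVI1-2531 6 members, and with shEVI1-2532 3 members, were higher at day 6 than at day 3.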
